A study of Rattus norvegicus with 6 samples.

Results

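The insulin-like growth factor (IGF) system was followed through 10 genes: the ligands Igf1 and Igf2, the receptors Igf1r and Igf2r, and the binding proteins Igfbp2, Igfbp3, Igfbp4, Igfbp5, Igfbp6 and Igfbp7. The genes were chosen by name, and all 10 were found among the 16876 gene symbols of the count table. A total of 9 held enough counts to be tested, and Igfbp6 did not. RNA came from rat (Rattus norvegicus) primary cultured microglia that had been shaken off confluent co-cultures grown in serum. One group was kept for 24 h with PSNPs, polystyrene nanoplastics, and the other for 24 h with IR-813, a near-infrared dye, with 3 libraries each. The count table heads the IR-813 columns con, and no untreated library was analysed here, so higher or lower means with PSNPs relative to IR-813. The labels give no genotype, strain or dose. They do not say whether the replicates were separate cultures, so each p-value reflects the spread among these libraries, which may be technical.

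IGF1 and IGF2 are small secreted proteins related to insulin. Both activate the tyrosine kinase receptor encoded by Igf1r, which signals for growth and survival, whereas the receptor encoded by Igf2r takes IGF2 up for breakdown and also carries lysosomal enzymes tagged with mannose 6-phosphate. The binding proteins hold the ligands outside the cell, lengthen their life and limit or aid their access to the receptor, and proteases release them. In the brain IGF1 is made by microglia and other glia, and Igf2 transcripts are best known from the meninges, the choroid plexus and cells of the vessel wall.

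The libraries held between 19166605 and 22553507 counts. Levels are given as library-scaled counts (CPM) after TMM scaling, which corrects for differences in library composition. The summed level of 8 astrocyte markers ran from 6296 to 8344 CPM over the 6 libraries. That of 11 oligodendrocyte-lineage markers ran from 4020 to 7296 CPM, and that of 8 microglia markers from 465 to 1038 CPM. The sums of the other glia stood above that of microglia in every library. CPM is not scaled for gene length and the lists hold different genes, so these sums do not give shares of cells. PSNPs replicate 3 stood apart from the other PSNPs libraries on the second principal component (35.4 against −22.9 and −24.3), which held 15.6% of the variance. In bulk RNA, fewer cells of a type and less RNA per cell cannot be told apart.

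The data show a fall of Igf2 and Igfbp4, a rise of Igfbp3 and no detected change of Igf1. Igf2 fell 7.46-fold, Igfbp4 fell 1.96-fold and Igfbp3 rose 1.65-fold. In edgeR's quasi-likelihood fit, with p adjusted by Benjamini-Hochberg over all 11679 tested genes, 1 of the 9 tested members was higher, 2 were lower and 6 did not pass. Of all tested genes 41.0% were called, 20.9% as higher and 20.1% as lower, so the share of members called was not above the background. The PSNPs libraries lay wholly to one side of the IR-813 libraries for 4 of the 9 tested members, Igf2, Igfbp3, Igfbp4 and Igfbp5, against 61.4% of all tested genes. The median log2 fold change was 0.11 over the tested members and −0.01 over all tested genes.

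**Figure D1:**
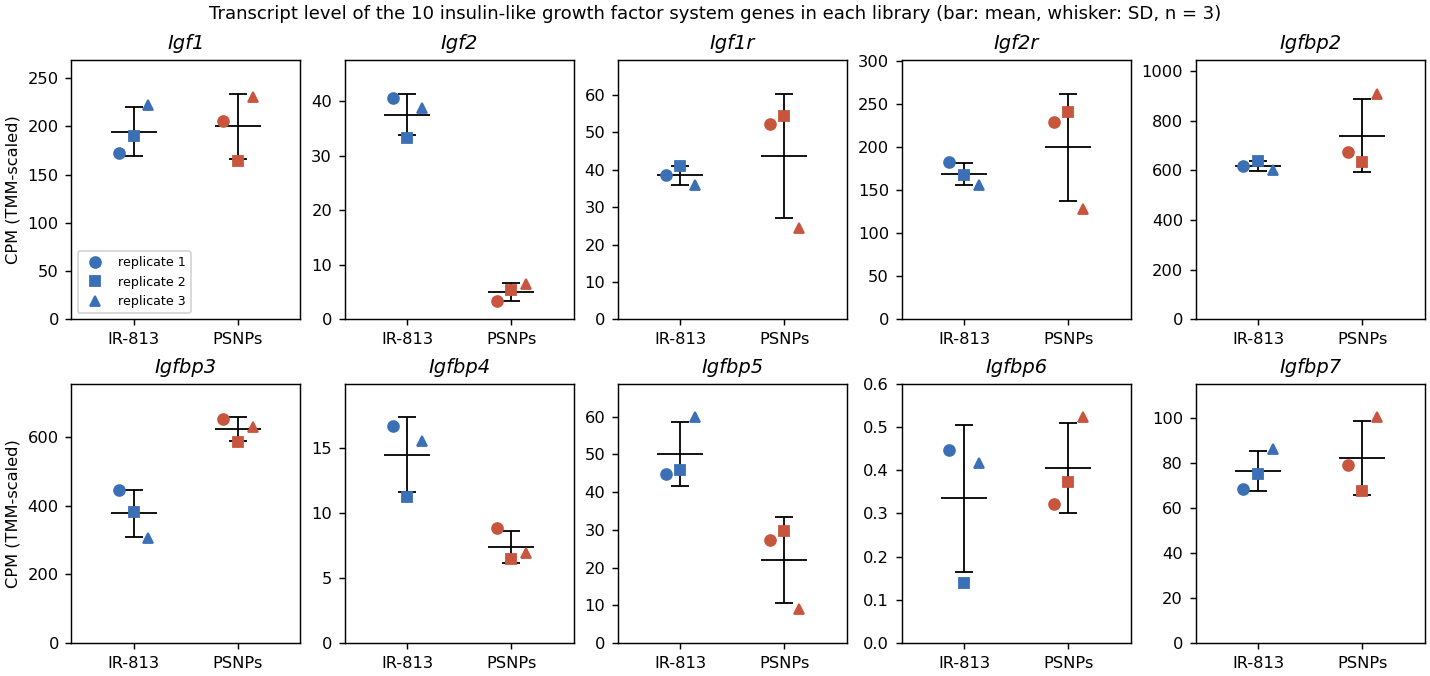
Level of each member in each library, in CPM on TMM-scaled library sizes, with 1 panel per gene and its own axis from 0; circles, squares and triangles are replicates 1, 2 and 3, the long bar is the mean and the whisker the SD over 3 libraries. Igf2, Igfbp4 and Igfbp5 are lower in all 3 PSNPs libraries and Igfbp3 is higher, while PSNPs replicate 3 (red triangle) is the lowest library for Igf1r, Igf2r and Igfbp5.

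Igf1 was among the more abundant members and was similar in both groups. It stood at 172, 189 and 222 CPM in the IR-813 libraries and at 206, 164 and 230 CPM in the PSNPs libraries. The groups overlapped, with the lowest and the highest library both treated with PSNPs. The log2 fold change was 0.04 ± 0.15 (estimate ± SE), with a 95% interval from −0.31 to 0.39 and an adjusted p of 0.848 by edgeR's quasi-likelihood test. The summed level of the microglia markers, in contrast, did not overlap between the groups. It ran from 786 to 1038 CPM with IR-813 and from 465 to 600.2 CPM under PSNPs. Of the 8 markers 7 were called lower, against 20.1% of all tested genes. The part of cell makeup in the level of Igf1 was not tested.

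Igf2 showed the largest change among the members. Its counts were 906, 714 and 839 in the IR-813 libraries and 72, 100 and 125 in the PSNPs libraries, which is 40.5, 33.3 and 38.8 CPM against 3.31, 5.31 and 6.52 CPM. The highest PSNPs library lay far under the lowest IR-813 library. The log2 fold change was −2.90 ± 0.24 with an adjusted p of 0.000256 by edgeR's quasi-likelihood test, and it passed under all 14 alternatives run, with values from −3.14 to −2.20. Of the 2351 genes called lower, 129 had a log2 fold change below that of Igf2.

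H19, a maternally expressed long noncoding RNA that shares an imprinted domain with Igf2, fell as well. In the RefSeq table of assembly GRCr8 the pair lie on the same chromosome with 0 protein-coding genes between them. H19 stood at 281, 268 and 247 CPM with IR-813 and at 44.6, 58.1 and 82.4 CPM with PSNPs. Its log2 fold change was −2.10 ± 0.22, with an adjusted p of 0.000582 by the same test. For both genes PSNPs replicate 1 was the lowest library and PSNPs replicate 3 the highest of that group. Among the IR-813 libraries the orders differed, with Igf2 lowest in replicate 2 and H19 lowest in replicate 3. Igf2bp2, which encodes an RNA-binding protein of Igf2 and many other messengers, stood at 79.0 ± 10.6 and 62.3 ± 7.72 CPM (SD, n = 3 each), and its log2 fold change of −0.34 ± 0.14 did not pass (adjusted p = 0.0859 by edgeR, from 0.0435 to 0.397 over 14 alternatives). Igf2bp1 was below the count filter.

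Among the marker lists of tissues known for Igf2, the endothelial and mural sums were lower with PSNPs. The choroid plexus sums and the fibroblast and leptomeningeal sums overlapped between the groups. The 5 choroid plexus markers summed to 0.699 to 1.16 CPM with IR-813 and 0.743 to 1.41 CPM with PSNPs, with Ttr, the epithelium's main secreted protein, at 0 counts in all libraries but PSNPs replicate 3, where it had 2. The 6 fibroblast and leptomeningeal markers summed to 27.2 to 75.1 and 46.5 to 50.8 CPM, with 0 of 2 tested markers called. Most of each sum came from the collagen genes Col1a1 and Col3a1. The mean of Col1a1 went from 38.7 down to 21.1 CPM and narrowly missed the threshold (adjusted p = 0.0551 by edgeR), with overlapping groups. That of Col3a1 went from 19.9 up to 27.4 CPM (adjusted p = 0.549 by edgeR). Col1a2 had 0 counts in every library, and the reason was not tested. The 7 endothelial and mural markers summed to 74.3 to 93.7 and 46.3 to 62.0 CPM. Of its 5 tested markers 3 were lower and 1 was higher. The mural actin gene Acta2 fell from 28.8 to 2.37 CPM and the pericyte receptor gene Pdgfrb from 44.7 to 29.4 CPM. Rgs5, another gene of this list and below the count filter, had 6, 2 and 3 counts with IR-813 and 0 in every PSNPs library. Endothelial genes went different ways. Pecam1 fell from 2.59 to 1.27 CPM, while the receptor gene Flt1 rose from 4.34 to 21.0 CPM. Kdr, another endothelial receptor gene, did not pass (log2 fold change −0.71 ± 0.38, adjusted p = 0.172 by edgeR). The part of such cells in the fall of Igf2 was not tested. The oligodendrocyte lineage also differed between the groups: its 11 markers summed to 6329 to 7296 CPM with IR-813 and 4020 to 4626 CPM with PSNPs, with 10 lower and 1 higher. That shift lay in the same direction between the groups as the lower levels of Igf2, Igfbp4 and Igfbp5. So did the lower sums of the microglia, neuron, and endothelial and mural markers. Within groups, the order of libraries by the oligodendrocyte sum did not match that of Igfbp4, of Igf2 with IR-813 or of Igfbp5 with PSNPs. The part of any of these cells in the lower levels was not tested. The astrocyte sums overlapped, at 6296 to 8094 and 7518 to 8344 CPM, with 4 of 8 markers higher and 0 lower. Beside these marker counts, 20.9% of all tested genes were called higher and 20.1% lower.

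The stretch just before the start of Igf2 is shown because this gene changed most among the members. RefSeq's table for GRCr8 holds 2 starts for it, and gene counts do not tell which was used in these cells. The 150 bases before each start are given 5′ to 3′ on the gene's strand, with matches to the searched motifs in capitals.
Igf2 first start, chr1:207253981-207254130, minus strand: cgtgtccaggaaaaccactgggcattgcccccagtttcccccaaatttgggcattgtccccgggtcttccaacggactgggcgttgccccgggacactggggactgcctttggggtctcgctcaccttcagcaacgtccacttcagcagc
Igf2 second start, chr1:207250476-207250625, minus strand: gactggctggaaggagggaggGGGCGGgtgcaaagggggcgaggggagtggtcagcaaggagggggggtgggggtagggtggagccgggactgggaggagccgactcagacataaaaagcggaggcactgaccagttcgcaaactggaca
The capitals in the second mark 1 GC box (GGGCGG), and the first held no searched motif. All 10 members matched the table, with 11 starts in all. The 9 motifs searched on both strands were the TATA box (TATAAA), the CCAAT box by those letters, the GC box (GGGCGG), the FOXO motif (TGTTTAC), the ATF4 element (TGATGNAA), the heat-shock pair (GAANNTTC), the antioxidant response element (TGACNNNGC), the E-box (CACGTG) and the CLEAR element of lysosomal genes. The CLEAR element is the E-box with GT before it and AC after it, and it was added once the sequences had been seen. A GC box was held by 26% of the 33469 windows of the same length in the table. A match describes letters and not a bound site.

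**Figure D2:**
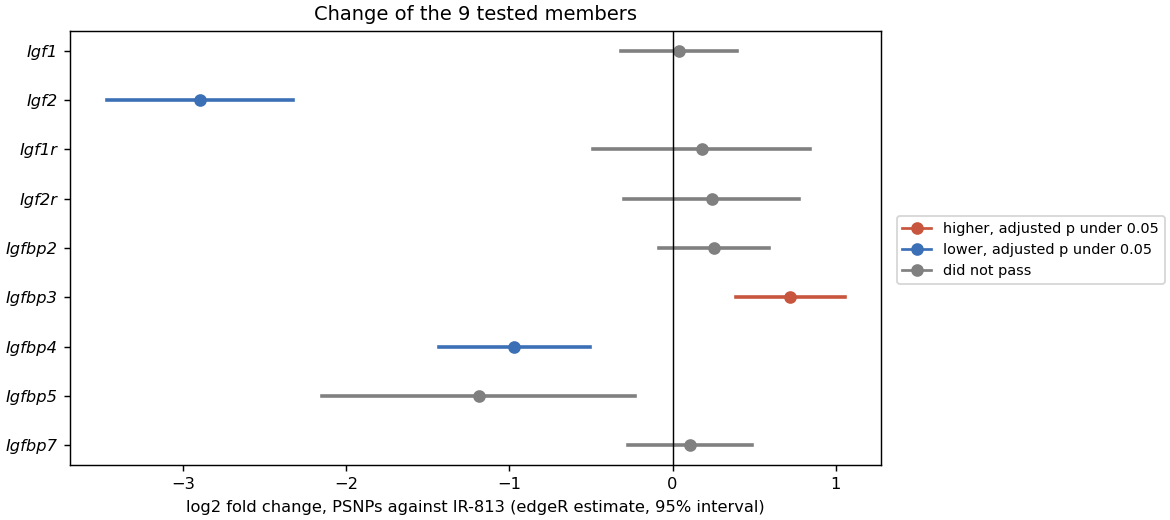
Log2 fold change of the 9 tested members, PSNPs against IR-813, from edgeR's quasi-likelihood fit; points are estimates, lines are 95% intervals for each gene alone, and colours give the call after adjustment over all tested genes. Igf2 and Igfbp4 lie below 0 and Igfbp3 above it; the interval of Igfbp5 lies below 0 but its adjusted p of 0.0529 did not pass.

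The receptors did not pass the test, and in both of them 1 library lay apart. Igf1r stood at 38.6, 41.1 and 36.0 CPM with IR-813 and at 52.2, 54.2 and 24.5 CPM with PSNPs. Igf2r stood at 183, 168 and 157 CPM with IR-813 and at 229.6, 241 and 128 CPM with PSNPs. For both genes PSNPs replicates 1 and 2 were above all IR-813 libraries and PSNPs replicate 3 was below them. The log2 fold change was 0.18 ± 0.28 for Igf1r (95% interval −0.49 to 0.84) and 0.24 ± 0.23 for Igf2r (−0.30 to 0.78). Neither passed in edgeR's fit, with an adjusted p of 0.632 for Igf1r and 0.423 for Igf2r. Without PSNPs replicate 3 both passed as higher, at 0.47 ± 0.07 for Igf1r (adjusted p = 0.000951, from 0.000951 to 0.992 over 14 alternatives) and 0.48 ± 0.07 for Igf2r (adjusted p = 0.000822, from 0.000217 to 0.790).

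The position of PSNPs replicate 3 moved with a proxy for transcript length, which itself was not measured. A length proxy was taken from the factor that links each gene's count to the authors' deposited log2 value, and tested genes were split into 5 equal classes by it. Across these classes, from the shortest to the longest, the median log2 difference of PSNPs replicate 3 from the mean of replicates 1 and 2 was 0.36, 0.19, 0.07, −0.11 and −0.46. Igf1r (−1.12) and Igf2r (−0.87) are in the longest class. Igf2 is also in the longest class by the proxy, yet was higher in replicate 3 by 0.63. Igfbp5 (−1.67) is in the second class, where the median was above 0. Igfbp2 (0.47) and Igfbp7 (0.45) lay near the median of their class, the shortest by the proxy. With an offset for length in the fit, an alternative chosen after the data were seen, Igf2r passed as higher at 0.67 ± 0.06 (adjusted p = 0.000217 by edgeR) and Igf1r, at 0.45 ± 0.19, did not (adjusted p = 0.0844). The cause of the difference of this library was not tested.

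**Figure D3:**
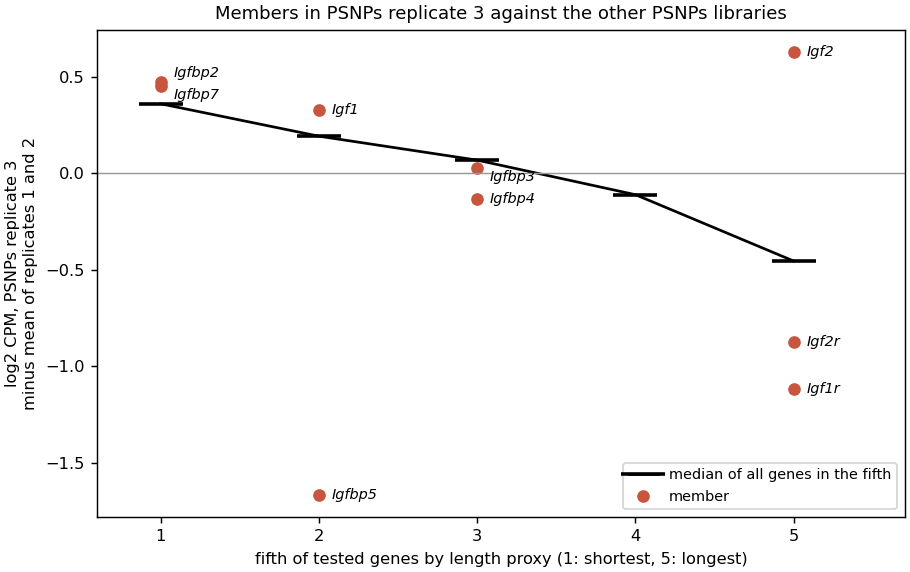
Difference of log2 CPM between PSNPs replicate 3 and the mean of PSNPs replicates 1 and 2 (vertical axis) against the class of tested genes by length proxy (horizontal axis, 1 shortest to 5 longest); black bars joined by a line are medians of all genes in a class (2304 genes each) and red points are the 9 tested members. The medians go from 0.36 to −0.46, with Igf1r and Igf2r below and Igf2 above the median of the longest class, and Igfbp5 far below that of the second.

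The windows before the receptor starts are shown because PSNPs replicate 3 was lowest for both genes and both hold the E-box CACGTG. The part of the E-box in that pattern was not tested. Capitals mark E-boxes, and in Igf2r also a GC box and the flanks that complete the CLEAR element.
Igf1r, chr1:130959847-130959996, plus strand: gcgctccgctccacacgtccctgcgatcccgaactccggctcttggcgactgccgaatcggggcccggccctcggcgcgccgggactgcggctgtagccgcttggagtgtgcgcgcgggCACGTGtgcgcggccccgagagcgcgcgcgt
Igf2r, chr1:50526728-50526877, plus strand: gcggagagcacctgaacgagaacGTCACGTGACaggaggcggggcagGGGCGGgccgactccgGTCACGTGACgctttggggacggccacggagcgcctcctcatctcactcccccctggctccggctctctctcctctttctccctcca
Igf1r had its E-box starting 31 bases before the start, and Igf2r held 2 E-boxes, each inside a full CLEAR element. An E-box was held by 3.74% of all windows and the CLEAR element by 0.164%. Igfbp2 was the other member with an E-box in this window, and its log2 CPM was higher in PSNPs replicate 3 by 0.47. Igfbp5, the tested member lowest in that library relative to PSNPs replicates 1 and 2 (−1.67), held none of the searched motifs.

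Insr, the gene of the related insulin receptor, stood at 47.1, 43.1 and 39.3 CPM with IR-813 and at 33.7, 34.0 and 8.50 CPM with PSNPs. PSNPs replicate 3 again lay lowest. The log2 fold change of −0.76 ± 0.46 did not pass (adjusted p = 0.216 by edgeR), and without PSNPs replicate 3 it was −0.35 ± 0.08 and passed (adjusted p = 0.00842, the lowest of 14 alternatives, of which the highest was 0.381). Insr was named after its values were seen. The insulin genes Ins1 and Ins2 had 0 counts in every library.

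Among the binding proteins, Igfbp3 rose while Igfbp4 fell. Igfbp3, the main carrier of IGFs in blood, stood at 444, 382 and 306 CPM with IR-813 and at 653, 585 and 629 CPM with PSNPs. Every PSNPs library was above every IR-813 library. The log2 fold change was 0.72 ± 0.14 (adjusted p = 0.00698 in edgeR's fit). It passed under all 14 alternatives, with values from 0.59 to 0.85. Igfbp4, which mostly inhibits IGF action until it is cleaved, stood at 16.7, 11.3 and 15.5 CPM with IR-813 and at 8.83, 6.47 and 6.89 CPM with PSNPs. These groups did not overlap either. Its log2 fold change was −0.97 ± 0.20 (adjusted p = 0.00823 by the same test), and it too passed under all 14 alternatives, with values from −1.12 to −0.80.

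Igfbp5, a binding protein that also attaches to matrix, was lower in every PSNPs library but missed the threshold. It stood at 44.7, 45.8 and 59.8 CPM with IR-813 and at 27.4, 29.6 and 8.92 CPM with PSNPs. The log2 fold change was −1.19 ± 0.41 with an adjusted p of 0.0529 in edgeR's fit. The call turned with the setting: 7 of 14 alternatives passed, with adjusted p from 0.00163 to 0.153. Without PSNPs replicate 3 the value was −0.81 ± 0.13 and passed (adjusted p = 0.00163), and without PSNPs replicate 2 it was −1.46 ± 0.45 and passed (adjusted p = 0.0464).

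The other binding proteins did not pass. Igfbp2, the most abundant member and a carrier typical of brain fluid, stood at 617, 639 and 599.8 CPM with IR-813 and at 675, 635 and 908 CPM with PSNPs. Only PSNPs replicate 3 lay far from the rest. Its log2 fold change was 0.26 ± 0.14 (95% interval −0.08 to 0.59, adjusted p = 0.188 by edgeR). Igfbp7, which has low affinity for IGFs and is a secreted matrix protein, stood at 68.5, 74.9 and 86.0 CPM with IR-813 and at 79.2, 67.7 and 100.2 CPM with PSNPs, with overlapping groups. Its log2 fold change was 0.11 ± 0.16 (−0.27 to 0.49, adjusted p = 0.618 by edgeR). Igfbp6, which prefers IGF2, had 10, 3 and 9 counts with IR-813 and 7, 7 and 10 counts with PSNPs, and a change could not be detected at this depth.

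The windows before Igfbp3 and Igfbp4, the binding-protein genes that passed in opposite directions, are given for comparison.
Igfbp3, chr14:86277945-86278094, minus strand: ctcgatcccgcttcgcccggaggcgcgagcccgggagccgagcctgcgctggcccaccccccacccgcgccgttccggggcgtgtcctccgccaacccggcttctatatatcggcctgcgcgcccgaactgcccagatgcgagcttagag
Igfbp4, chr10:84491321-84491470, plus strand: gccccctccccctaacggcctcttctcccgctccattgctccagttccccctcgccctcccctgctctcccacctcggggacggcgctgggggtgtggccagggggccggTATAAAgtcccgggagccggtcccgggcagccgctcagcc
The capitals in Igfbp4 mark a TATA box starting 40 bases before the start, which 8% of all windows held. Igfbp3 had none of the searched motifs in this window.

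Levels of different genes were compared on the authors' deposited log2 values after undoing the logarithm and the pseudocount of 1. These values behave as scaled for gene length, though the labels do not name their unit. The order with IR-813 was Igfbp2 (534 ± 17.5), Igfbp3 (162 ± 29.9), Igf1 (118 ± 15.2), Igfbp7 (79.5 ± 9.15), Igfbp5 (33.2 ± 5.54), Igf2r (18.8 ± 1.48), Igf2 (9.95 ± 1.11), Igf1r (8.18 ± 0.552), Igfbp4 (7.0 ± 1.38) and Igfbp6 (0.468 ± 0.236), as mean ± SD of this per-length level over 3 libraries. Within this order the ranges of Igfbp3 and Igf1, of Igf2 and Igf1r, and of Igf1r and Igfbp4 touched or overlapped. With PSNPs, 5 members took another rank: Igf2 went from rank 7 to 9, Igfbp5 from 5 to 6, Igf2r from 6 to 5, Igf1r from 8 to 7 and Igfbp4 from 9 to 8. The ranges of Igf1 and Igfbp7, of Igf2r and Igfbp5, and of Igfbp5 and Igf1r overlapped with PSNPs. The ranks were the same in all 3 PSNPs libraries.

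**Figure D4:**
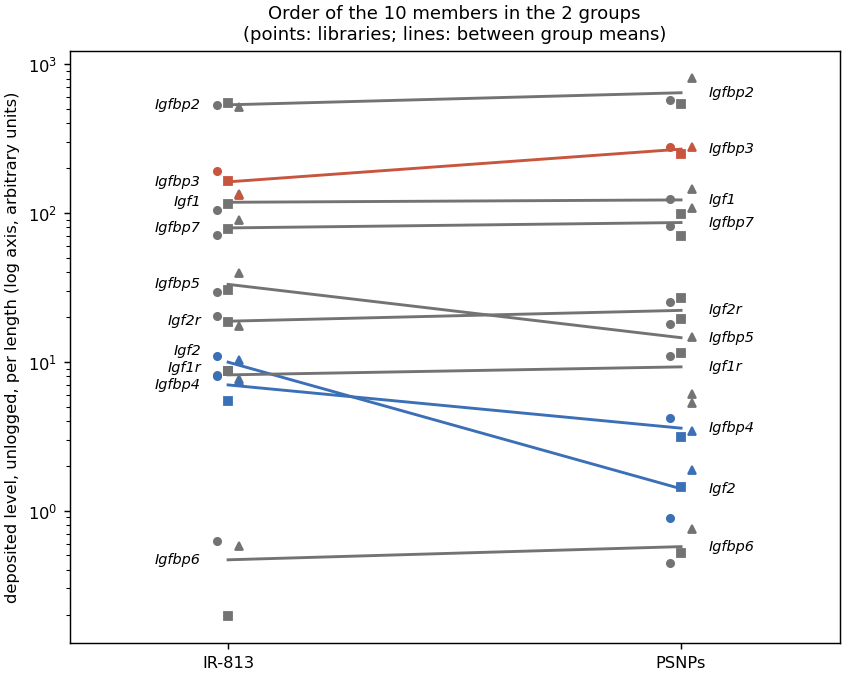
Per-length level of the 10 members in the groups, from the deposited values after undoing the log2, on a log axis in arbitrary units; points are libraries (circle, square and triangle for replicates 1, 2 and 3), lines join group means, and red and blue mark members called higher and lower. Igf2 drops from rank 7 to rank 9, while Igfbp2, Igfbp3, Igf1 and Igfbp7 keep the top 4 ranks by mean.

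On the same per-length scale, Igf2 made up 9.39%, 7.05% and 7.09% of the summed level of the ligands with IR-813 and 0.710%, 1.44% and 1.28% with PSNPs. The sum of Igf1 and Igf2 was 128 ± 15.1 with IR-813 and 124 ± 23.2 with PSNPs, with overlapping groups, since Igf1 made up most of it. The summed level of the 6 binding proteins was 833, 829.9 and 785 with IR-813 and 960.0, 888 and 1205 with PSNPs, so every PSNPs library was above every IR-813 library. Igfbp2 made up 65.4 ± 1.34% of that sum with IR-813 and 62.9 ± 3.74% with PSNPs. The share of Igfbp3 was 22.9%, 19.8% and 16.7% with IR-813 and 29%, 28.2% and 23.1% with PSNPs, and that of Igfbp5 was 4.08 ± 0.827% and 1.53 ± 0.899%. For single values of 3 against 3 an exact permutation test cannot go below p = 0.1, so these sums and shares are descriptions.

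**Figure D5:**
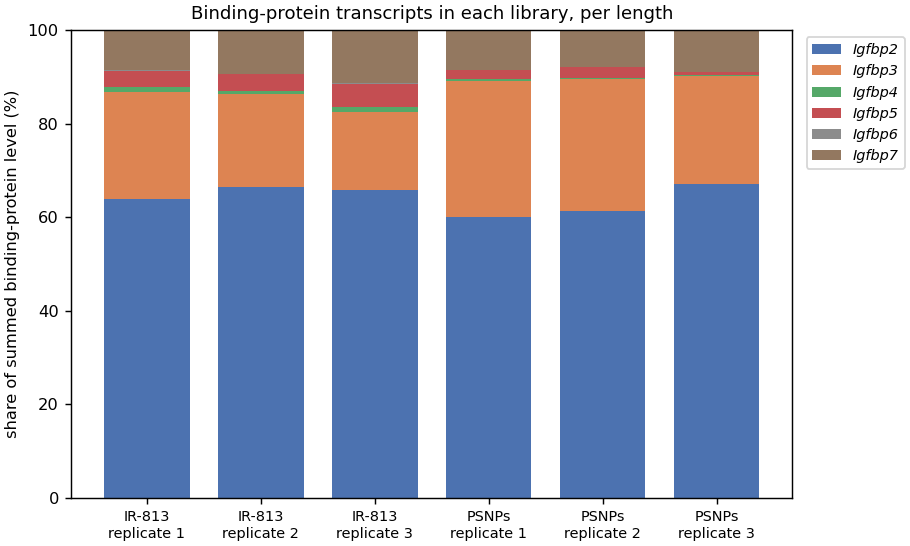
Share of each binding protein in the summed per-length level of the 6 binding proteins, as a stacked bar from 0 to 100% for each library. Igfbp2 makes up between 60.1% and 67.1% in every library, and Igfbp3 has a larger share in the PSNPs libraries (23.1% to 29%) than in the IR-813 libraries (16.7% to 22.9%).

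Genes around the IGF system were read from 8 lists with 85 genes, of which 72 were tested, 12 were higher and 18 were lower. The 41.7% called lay near the 41.0% of all tested genes (20.9% higher and 20.1% lower). The median log2 fold change was −0.09 over these lists and −0.01 over all tested genes. Without IR-813 replicate 1 or 2 the lower count was 8, without IR-813 replicate 3 it was 10, and without PSNPs replicate 3 the counts were 18 higher and 26 lower. Of 5 tested genes that cleave binding proteins or restrain that cleavage, 1 was higher and 2 were lower, or 60% called against 41.0% of all tested genes. Stc2, which encodes stanniocalcin-2, an inhibitor of the protease PAPP-A, fell from 14.6 ± 3.44 to 1.1 ± 0.125 CPM (adjusted p = 0.000116 by edgeR, n = 3 each). Pappa, the gene of that protease, which cleaves IGFBP4, fell from 10.8 ± 2.40 to 3.55 ± 2.20 CPM (adjusted p = 0.0319 by edgeR). That call was lost without any 1 of the 3 IR-813 replicates and without PSNPs replicate 2 (adjusted p from 0.0573 to 0.104). Htra1, a secreted serine protease gene, rose from 39.6 ± 5.29 to 104 ± 9.59 CPM (adjusted p = 0.000361 by edgeR). The related inhibitor gene Stc1 (−0.07 ± 0.16) and Adam9 (−0.04 ± 0.22) did not pass.

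Of 7 other ligands, receptors and carriers only Insr and Igfbpl1 were tested. Igfbpl1, an IGFBP-like gene of immature neural cells, fell from 4.95 ± 0.247 to 0.633 ± 0.136 CPM (adjusted p = 0.000140 by edgeR, n = 3 each). All 7 tested neuron markers fell too, against 20.1% of all tested genes called lower. The 9 on that list summed to between 175 and 199 CPM under IR-813 and between 39.8 and 44.3 CPM under PSNPs. The part of neurons in the fall of Igfbpl1 was not tested. In the growth hormone axis, which drives Igf1 in liver, the receptor gene Ghr fell from 4.14 ± 0.135 to 1.33 ± 0.387 CPM (adjusted p = 0.00185) and the transcription factor gene Stat5a rose from 32.1 ± 2.27 to 61.4 ± 3.15 CPM (adjusted p = 0.000573), both by edgeR. Jak2, Stat5b and Socs2 did not pass.

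Of 14 tested adaptor and feedback genes, 4 rose and 6 fell, or 71.4% called against 41.0% of all tested genes. Shc1, an adaptor that links the receptor to Ras, rose by 0.47 ± 0.07 on the log2 scale, and the cytokine-signalling inhibitor gene Socs1 by 0.82 ± 0.13. Grb10, an imprinted gene whose product restrains insulin and IGF receptors, fell from 16.3 ± 3.46 to 8.68 ± 2.05 CPM, and Sos2, a Ras activator gene, from 73.1 ± 2.93 to 46.0 ± 12.2 CPM. The insulin receptor substrate genes, named after their values were seen, were also among those that fell, with Irs1 at −1.17 ± 0.36 (adjusted p = 0.0385) and Irs2 at −0.57 ± 0.19 (adjusted p = 0.0453) by edgeR. With the length offset the value of Irs2 was −0.20 ± 0.06 and still passed (adjusted p = 0.0397 by edgeR). Leaving out 1 IR-813 replicate at a time, the adjusted p of Irs1 lay between 0.0844 and 0.118 and that of Irs2 between 0.0788 and 0.132, so neither passed, and Irs2 did not pass without PSNPs replicate 1 either (0.0598). Grb10 did not pass without IR-813 replicate 1 (adjusted p = 0.0682), IR-813 replicate 2 (0.0576) or PSNPs replicate 1 (0.0508), and Sos2 not without any 1 of the IR-813 replicates (0.0806 to 0.0999), by edgeR.

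Of 22 tested genes of the PI3K, AKT and mTOR cascade, 2 rose, 4 fell and 16 did not pass, or 27.3% called against 41.0% of all tested genes. The genes of PI3K regulatory subunits went different ways. Pik3r2 rose by 0.50 ± 0.08 on the log2 scale. Pik3r1 fell from 55.2 ± 0.967 to 25.1 ± 11.1 CPM (adjusted p = 0.0286) and Pik3r3 from 18.5 ± 1.41 to 9.01 ± 3.71 CPM (adjusted p = 0.0314), both by edgeR and both named after their values were seen. Leaving out 1 IR-813 replicate at a time, neither passed, with adjusted p from 0.0778 to 0.0809 for Pik3r1 and from 0.0787 to 0.0993 for Pik3r3. The transcription factor gene Foxo4 rose by 0.54 ± 0.09 on the log2 scale. Eif4ebp1, an inhibitor of translation that mTOR switches off, fell from 110 ± 12.4 to 60.1 ± 15.6 CPM, and the catalytic subunit gene Pik3cb fell by 0.57 ± 0.15. Pik3cb did not pass without any 1 of the IR-813 replicates, without PSNPs replicate 2 or with the length offset, where the value was −0.28 ± 0.11 (adjusted p from 0.0522 to 0.0950 over these 5 settings, by edgeR). Of 12 tested FOXO target genes, 2 rose and 2 fell, or 33.3% called against 41.0% of all tested genes. Gadd45a, a stress-induced growth arrest gene, fell from 295 ± 55 to 100.3 ± 13 CPM and the ubiquitin ligase gene Trim63 from 5.29 ± 0.400 to 1.79 ± 0.556 CPM, while the pro-apoptotic gene Bcl2l11 rose by 0.64 ± 0.11. Pdk4, an inhibitor of pyruvate dehydrogenase, rose from 2.08 ± 0.449 to 4.94 ± 1.80 CPM, a call lost without IR-813 replicate 1 or 3 or PSNPs replicate 1 or 2 (adjusted p from 0.0530 to 0.0758 by edgeR).

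In the mannose 6-phosphate pathway that Igf2r serves, 2 of 10 tested genes rose, 1 fell and 7 did not pass, or 30% called against 41.0% of all tested genes. Nagpa, which uncovers the mannose 6-phosphate tag, rose from 18.0 ± 0.694 to 31.9 ± 4.67 CPM (adjusted p = 0.00290), and Gnptg, a subunit of the enzyme that adds it, from 45.3 ± 0.348 to 62.8 ± 8.61 CPM (adjusted p = 0.0157), both by edgeR. Gga3, a sorting adaptor of the Golgi, fell by 0.52 ± 0.09, and with the length offset its value was −0.20 ± 0.11 and did not pass (adjusted p = 0.174). Gnptg did not pass without any 1 of the IR-813 replicates (adjusted p from 0.0522 to 0.0674). The smaller mannose 6-phosphate receptor gene M6pr had means of 5.67 and 5.83 CPM, IR-813 first, and did not pass.

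Genes whose log2 CPM ran most like that of a member over the 6 libraries were picked by Pearson's r from 9708 genes with a mean above 5 CPM. For Igf1 they were Ifitm3 (r = 0.995), Hcls1 (0.995) and Ap5b1 (0.995), for Igf2 Fam110b (0.996), Lrp3 (0.996) and Tsr2 (0.995), and for Igf1r Klhl23 (0.997), Traf3 (0.996) and Dpy19l3 (0.996). The libraries share their treatment within a group, and these are the top values of a long list, so they only describe these 6 libraries. The size of change differed among such neighbours: the log2 fold change of Fam110b was −1.39 and that of Lrp3 −0.35, against −2.90 for Igf2.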

How the data were processed

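Microglia RNA was measured by poly(A) RNA-seq in 6 libraries, grouped by title into IR-813 and PSNPs. The authors deposited a table of raw counts per gene symbol and, for each library, log2 values of unnamed scaling. The submitters' processing notes name bcl2fastq and genome build mRatBN7.2. The aligner, counting program, annotation and strand use were not given in the sources used here, so reads shared with overlapping or antisense genes could not be separated. Columns named con and NPS were matched to samples through the per-library files.

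Counts were filtered with filterByExpr (11679 of 16876 genes), scaled by TMM and then tested by edgeR 4.0.16 under R 4.3.3 (quasi-likelihood, treatment as the only term), with adjusted p under 0.05 as the call. SE is the log2 fold change divided by the square root of F. The common biological coefficient of variation was 0.159. Undoing the log2 with a pseudocount of 1, deposited values were proportional to counts through a gene and a library factor within 0.05 log2 units for at least 98.7% of genes per library with 20 or more counts. The gene factor served as length proxy for 98.6% of tested genes. Across 10732 genes, not independent of each other, its Spearman correlation with genomic span, introns included, was 0.499.

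Members and lists were chosen with earlier results of these data known. Named genes are all members, up to 4 called genes with the smallest p of each list, and 3 genes of the most similar pattern for Igf1, Igf2 and Igf1r; others are said to be named after their values were seen. Promoter sequences are from RefSeq, assembly GRCr8. Alternatives were other scalings, no count filter, DESeq2 1.42.0, limma 3.58.1 on the log2 values, a replicate block, a length offset and leaving out each library. Reads carried no molecular identifiers that the labels name, so a count need not be 1 molecule.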

Additional observations from a re-analysis of the deposited data

How the results depend on the processing

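Igf2, Igfbp3 and Igfbp4 kept their direction and passed under all 14 alternatives, and Igf1, Igfbp2 and Igfbp7 passed under none. Members called higher numbered 1, or 2 with the length offset (Igf2r added) and between 1 and 3 leaving out 1 library (Igf1r and Igf2r added without PSNPs replicate 3). Members called lower numbered 2 or 3, with Igfbp5 as the member that varied. Leaving out 1 library, the 8 other lists gave between 8 and 18 higher and between 8 and 26 lower genes, and all tested genes gave between 1339 and 3591 higher and between 1473 and 3478 lower. By library size alone 40.5% of calls were higher and with the length offset 60.0%, against 50.9%. Of the 22 list genes named by the rule, 15 passed under every alternative, 7 lost the call under at least 1 and 0 reversed. Irs1, Irs2, Pik3r1 and Pik3r3, named outside the rule, each lost it under at least 3. Same-numbered deviations from the group mean correlated at −0.01, 0.01 and 0.12, and IR-813 replicate 1 correlated best with PSNPs replicate 2 (0.18). With 3 libraries per group, these values cannot decide whether replicate numbers pair the libraries. With the replicate block, 2035 genes were higher and 2124 lower, and no call of a member changed. Depth limits Igfbp6, which had at most 10 counts per library.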
